A study of Arabidopsis thaliana with 8 samples.

Results

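Mitogen-activated protein kinase (MAPK) cascade genes were taken as all rows of the deposited expression table whose best Swiss-Prot match is described as a mitogen-activated protein kinase, in any case of the letters. The rule found 66 of the 32833 genes: 21 MAPK genes, 10 MAPK kinase (MAPKK) genes, 34 MAPKK kinase (MAPKKK) genes and 1 gene whose match is a MAPK-binding protein. The RNA came from whole Arabidopsis thaliana seedlings of 3 groups. RNAi line 5 (2 libraries) and RNAi line 12 (3 libraries) carry an RNA interference knockdown of RLI2, listed here as ABCE2, an ATP-binding cassette protein known for splitting ribosomes after translation ends. WT (3 libraries) is the Col-0 accession without the knockdown. All seeds were kept on Murashige and Skoog plates at 4 °C for 3 days and grown at 22 °C for 7 days, under a cycle of 16 h light and 8 h dark. The labels give neither the RNAi construct and its promoter nor the number of seedlings in a library, and they do not say whether replicates were grown separately, so the spread behind the p-values may be technical rather than biological.

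Values are FPKM (fragments scaled to gene length and to the mapped fragments of the library), so levels of different genes can be set side by side. Depth, derived from the values themselves, was 42280000 to 49010000 fragments, and between 18218 and 18565 genes had 1 FPKM or more. ABCE2 stood at 25.7 ± 0.998 FPKM in RNAi line 5 (n = 2) and 25.5 ± 1.87 FPKM in RNAi line 12 (n = 3), against 57.97 ± 0.541 FPKM in WT (SD, n = 3). Ribosomal RNA genes took 0.468% and 2.175% of the implied fragments in RNAi line 5, 0.161%, 2.338% and 7.602% in RNAi line 12, and 0.412%, 0.401% and 0.192% in WT, so counts are also given without the 3 libraries above 2%. The evening clock genes TOC1 and PRR5 were higher and the morning clock genes CCA1 and LHY lower in the mean of both lines (log2 differences 1.50, 2.05, -1.20 and -1.98, limma adjusted p = 6.03e-06, 1e-05, 4.41e-05 and 5.56e-06). No label gives the hour of harvest, and its part in the results below was not tested. Of the marker genes tested, 1 of 3 for green tissue, 1 of 4 for root and 1 of 3 for vascular tissue were higher in the mean of both lines, and 1, 1 and 0 were lower. Among all genes tested, 28.1% were higher and 28.1% lower.

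A MAPK cascade is a relay of 3 kinases. A MAPKKK, switched on below a receptor, phosphorylates a MAPKK, and the MAPKK phosphorylates a threonine and a tyrosine in the activation loop of a MAPK, which then phosphorylates transcription factors, enzymes and microtubule proteins. In Arabidopsis, MPK3, MPK6 and MPK4 are the MAPKs best known for responses to pathogen patterns, MPK3 and MPK6 also hold back the making of stomata below the MAPKKK YODA (YDA), and MPK4 also acts in cell division. Changes of mRNA, which were measured here, say nothing of phosphorylation.

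Arabidopsis MAPKs come in groups A to D, and the middle residue of the phosphorylated motif sorts them: glutamate in groups A, B and C, and aspartate in group D. The 30 coding bases around this motif are shown for the MAPKs with the largest changes in each kind, 5′ to 3′ on the coding strand, with the 3 codons of the motif in capitals (RefSeq, assembly TAIR10.1, in which all 66 members have the start and end given in the deposited table).
MPK3: gattttatgACTGAGTATgttgttacgaga
MPK5: gagtatatgACAGAGTATgttgtaacacga
MPK7: cagttcatgACTGAGTATgtggttacacgt
MPK11: gacttcatgACAGAATATgttgttacacgt
MPK14: cagtttatgACAGAGTATgtggtcactcgt
MPK12: gacttcatgACTGAATATgtcgttacccgt
MPK17: gtgttttggACTGACTACgttgctacaaga
MPK18: gtcttttggACGGACTATgttgccacaaga
MPK19: gtcttttggACGGATTATgttgccacaaga
MPK20: atcttctggACTGACTATgttgctaccaga
The first 6 of these lie at chr3:16757766-16757795 (MPK3, plus strand), chr4:6893134-6893163 (MPK5, plus strand), chr2:7908694-7908723 (MPK7, minus strand), chr1:203417-203446 (MPK11, plus strand), chr4:17210749-17210778 (MPK14, minus strand) and chr2:18946829-18946858 (MPK12, minus strand), each within 1 exon. The other 4 span chr2:201226-201372 (MPK17), chr1:19973186-19973305 (MPK18) and chr2:17842531-17842684 (MPK20) on the minus strand and chr3:4946783-4946913 (MPK19) on the plus strand, and each of these spans includes an intron of 90 to 124 bases that falls after base 12 of the stretch, between the threonine and the aspartate codon. Among the 20 MAPK genes with a recognisable motif, all 8 with the aspartate codon had an intron at that place, and none of the 12 with the glutamate codon had an intron within these 30 bases. The remaining MAPK gene, AT4G01595, is a short match to MPK18 in which the motif was not found.

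Of the 66 members, 43 passed the filter of at least 1 FPKM in at least 2 libraries and were tested: 19 MAPK, 8 MAPKK and 16 MAPKKK genes. A log2 difference is the difference between group means of log2(FPKM + 1), which understates the change of genes near or below 1 FPKM. A member is called higher or lower where the limma adjusted p is under 0.05, adjusted over all 19395 genes tested. In the mean of both RNAi lines, with each line weighted equally, 17 tested members were higher than in WT and 7 were lower. Of the 17, MPK11 and MPK14 passed the filter only through RNAi libraries. Calls were as common among all genes: 28.1% of all genes tested were higher and 28.1% were lower. The members' median log2 difference was 0.15, beside -0.01 over all genes tested. Without the 3 libraries above 2% ribosomal RNA, the counts were again 17 and 7.

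In RNAi line 5, 16 members were higher and 6 lower than in WT, beside 22.2% and 22.3% of all genes tested. In RNAi line 12, 19 members were higher and 6 lower, beside 28.3% and 27.7% of all genes. With those 3 libraries left out, so that each line keeps 1, 12 and 6 members were called in RNAi line 5 and 13 and 5 in RNAi line 12. Calls over all genes tested also became fewer in both lines without those libraries. Both comparisons use the same 3 WT libraries. By class, 14 of the 19 MAPK genes tested were called in the mean of both lines (9 higher, 5 lower), 4 of the 8 MAPKK genes (4 higher, 0 lower by limma, and 0 lower at an unadjusted p under 0.05) and 6 of the 16 MAPKKK genes (4 higher, 2 lower).

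**Figure D1:**
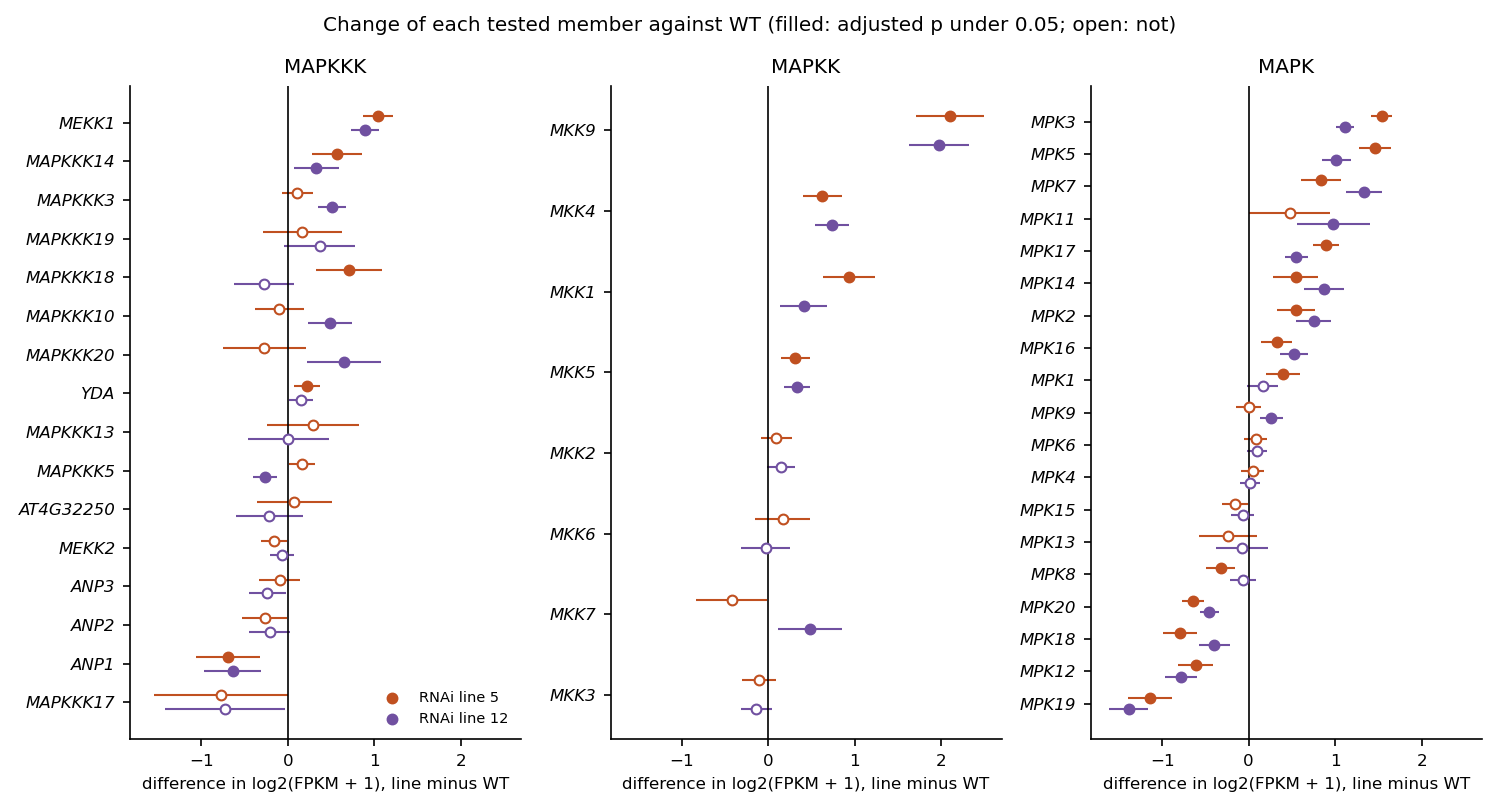
Difference in log2(FPKM + 1) from WT (x axis) for each of the 43 tested members, in RNAi line 5 (orange) and RNAi line 12 (purple), by class; lines are 95% confidence intervals from limma, and filled points have an adjusted p under 0.05. MKK9 stands farthest to the right in both lines (2.10 and 1.97) and MPK19 farthest to the left (-1.14 and -1.39).

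Summed over all members of a class, MAPK transcripts reached 543 to 544 FPKM in RNAi line 5 and 493 to 506 FPKM in RNAi line 12, against 404 to 413 FPKM in WT. MAPKK transcripts summed to 85.4 to 87.9 FPKM in RNAi line 5 and 77.2 to 90.2 FPKM in RNAi line 12, against 58.7 to 62.2 FPKM in WT. MAPKKK transcripts summed to 131 to 139 FPKM in RNAi line 5 and 128 to 131 FPKM in RNAi line 12, against 108 to 112 FPKM in WT. In each class, every RNAi library lay above every WT library. Such sums weigh abundant members most, and 5 MAPK and 2 MAPKKK genes were lower in the mean of both lines. MPK17 and MPK3 averaged 132 and 125 FPKM in RNAi line 5 and 104 and 92.8 FPKM in RNAi line 12, against 70.5 and 42.4 FPKM in WT. MKK9 and MEKK1 gained the most FPKM in their classes. In these whole-seedling samples, more or fewer cells of a type and more or less RNA per cell cannot be told apart.

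MAPKKKs open the cascade. MEKK1 (AT4G08500, chr4:5403671-5407320, minus strand), which acts above MKK1, MKK2 and MPK4 in defence, had 29.3 and 29.6 FPKM in RNAi line 5 and 28.98, 26.5 and 24.2 FPKM in RNAi line 12, against 13.98, 13.9 and 13.6 FPKM in WT. The 5 RNAi libraries did not overlap the WT libraries, and the log2 difference in the mean of both lines was 0.97 (SE 0.06, limma adjusted p = 1.21e-05). For MEKK1 and the genes below, such separation of libraries only describes the values. Its share among all genes tested was not counted, and 56.1% of those genes were called. MEKK1 was the most abundant MAPKKK in every RNAi library, whereas MAPKKK5 was in every WT library. Of its neighbours on chromosome 4, MEKK2 (AT4G08480), a kinase linked to autoimmunity when the MEKK1 to MPK4 pathway is broken, had 5.96 and 6.42 FPKM in RNAi line 5 and 6.68, 6.52 and 6.83 FPKM in RNAi line 12, against 6.98, 7.13 and 6.97 FPKM in WT. All RNAi libraries were slightly below all WT libraries, without a call (log2 difference -0.11, limma adjusted p = 0.104). MAPKKK10 (AT4G08470, whose Swiss-Prot match is named MEKK3) is described with the differences between the lines. MEKK1 and MEKK2 share an exact coding stretch of 87 bases, MEKK2 and MAPKKK10 one of 67 bases and MEKK1 and MAPKKK10 one of 44 bases, and no source used here says how reads in such stretches were assigned.

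The 3 MAPKKKs known to feed MPK3 and MPK6 were of like abundance in WT. MAPKKK3 (AT1G53570), which acts with MAPKKK5 below pattern receptors, had 15.4 and 13.99 FPKM in RNAi line 5 and 18.5, 19.5 and 21.01 FPKM in RNAi line 12, against 13.2, 13.1 and 14.2 FPKM in WT. The RNAi line 12 libraries were the high ones, and those of RNAi line 5 overlapped WT. In the mean of both lines MAPKKK3 rose by 0.31 (SE 0.06, limma adjusted p = 0.00365). YDA (AT1G63700), known for its role in stomatal and embryo patterning, had 16.6 and 17.2 FPKM in RNAi line 5 and 17.04, 15.98 and 14.9 FPKM in RNAi line 12, against 14.4, 14.1 and 14.5 FPKM in WT. Every RNAi library was above every WT library, with a log2 difference of 0.18 (SE 0.05, limma adjusted p = 0.0201). The YDA call was lost without WT replicate 1 (0.19, adjusted p = 0.0561), WT replicate 2 (0.17, adjusted p = 0.0692) or RNAi line 5 replicate 2 (0.17, adjusted p = 0.0562) in limma, and the stomatal lineage markers given beside MPK12 were lower in the same libraries, their part not tested. MAPKKK5 (AT5G66850) had 17.6 and 18.5 FPKM in RNAi line 5 and 13.9, 12.4 and 13.2 FPKM in RNAi line 12, against 15.8, 15.7 and 16.3 FPKM in WT. It lay above WT in both libraries of RNAi line 5 and below WT in all libraries of RNAi line 12, and the mean of both lines gave no call (-0.05, limma adjusted p = 0.476).

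The ANP kinases act above MKK6 and MPK4 in cell plate formation. ANP1 (AT1G09000) had 0.726 and 1.21 FPKM in RNAi line 5 and 1.27, 0.796 and 1.04 FPKM in RNAi line 12, against 2.39, 2.24 and 1.85 FPKM in WT. All RNAi libraries were below all WT libraries, and ANP1 fell by 0.66 on the log2 scale (SE 0.13, limma adjusted p = 0.00312). ANP2 and ANP3 had no call in the mean of both lines (-0.24 and -0.17, limma adjusted p = 0.0555 and 0.125), although the ANP2 values of 0.800 to 0.885 FPKM in RNAi line 5 and 0.826 to 1.01 FPKM in RNAi line 12 were all below those of 1.06 to 1.37 FPKM in WT.

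Among the small single-domain MAPKKKs that act above MKK3, MAPKKK14 (AT2G30040), studied in wound responses, had 14.5 and 15.3 FPKM in RNAi line 5 and 12.5, 14.3 and 10.8 FPKM in RNAi line 12, against 8.77, 9.53 and 11.02 FPKM in WT. RNAi line 5 stood above WT and RNAi line 12 overlapped it, and the mean of both lines was 0.45 higher (SE 0.10, limma adjusted p = 0.00656). MAPKKK17 (AT2G32510), part of an abscisic acid pathway with MAPKKK18 and MKK3, had 0.816 and 1.59 FPKM in RNAi line 5 and 1.44, 0.404 and 2.29 FPKM in RNAi line 12, against 2.39, 3.24 and 2.52 FPKM in WT. Its RNAi libraries were all below WT but spread widely, and the log2 difference of -0.75 (SE 0.27, limma adjusted p = 0.0454) was not stable. The call was lost in limma without any 1 of the WT libraries (-0.81, -0.65 and -0.78, adjusted p = 0.0826, 0.140 and 0.0895), without RNAi line 5 replicate 1 (-0.62, adjusted p = 0.131) and without RNAi line 12 replicate 1 (-0.78, adjusted p = 0.0600).

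The MAPKKs form the narrow middle of the relay, and none of the 8 tested was called lower in either line or in their mean. At an unadjusted p under 0.05 in limma, 1 of them (MKK7) was lower in RNAi line 5, 0 in RNAi line 12 and 0 in the mean. With a pseudocount of 0.1, MKK7 was called lower in RNAi line 5 (-1.26, limma adjusted p = 0.0354), where both libraries lay below all WT libraries. MKK9 (AT1G73500, chr1:27639091-27640643, minus strand), an activator of MPK3 and MPK6 linked to ethylene and camalexin production, had 15.96 and 16.7 FPKM in RNAi line 5 and 11.3, 17.1 and 16.97 FPKM in RNAi line 12, against 2.74, 3.02 and 3.40 FPKM in WT. The lowest RNAi library lay far above the highest WT library. MKK9 averaged 16.3 ± 0.534 FPKM in RNAi line 5 (n = 2) and 15.1 ± 3.30 FPKM in RNAi line 12 (n = 3), against 3.05 ± 0.328 FPKM in WT (SD, n = 3), and its log2 difference of 2.04 (SE 0.14, limma adjusted p = 1.47e-05) was the largest among the members tested.

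MKK4 and MKK5, a near-redundant pair above MPK3 and MPK6, both rose. MKK4 (AT1G51660) had 9.89 and 10.4 FPKM in RNAi line 5 and 9.67, 11.9 and 11.7 FPKM in RNAi line 12, against 6.33, 6.49 and 5.84 FPKM in WT. The MKK4 log2 difference was 0.68 (SE 0.08, limma adjusted p = 0.000213). MKK5 (AT3G21220) had 14.9 and 16.1 FPKM in RNAi line 5 and 14.5, 16.3 and 16.2 FPKM in RNAi line 12, against 12.6, 12.3 and 11.9 FPKM in WT. The MKK5 log2 difference was 0.32 (SE 0.06, limma adjusted p = 0.0022). For each of these genes all RNAi libraries were above all WT libraries. Their longest shared coding stretch is 40 bases, and MKK5 also overlaps 4CL4 on the other strand by 459 bases and MKK4 overlaps HTT5 on the same strand by 204 bases. With no strand setting known, reads from such overlaps cannot be told apart, which also holds for MKK3 and AT5G40450 (178 bases), MKK1 and ABI1 (22 bases), MKK7 and the more abundant AT1G18360 (44 bases) and ANP1 and EBM (17 bases).

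MKK1 and MKK2 are partners in the MEKK1 to MPK4 pathway, and only the rarer of them was called. MKK1 (AT4G26070) had 9.47 and 7.84 FPKM in RNAi line 5 and 6.28, 5.82 and 4.998 FPKM in RNAi line 12, against 3.55, 4.66 and 3.93 FPKM in WT. The RNAi libraries did not overlap WT, and MKK1 rose by 0.67 (SE 0.11, limma adjusted p = 0.00109). MKK2 (AT4G29810, listed as ATMKK2), the most abundant MAPKK in every library, had 30.3 and 26.3 FPKM in RNAi line 5 and 28.01, 30.6 and 29.3 FPKM in RNAi line 12, against 26.2, 27.6 and 25.4 FPKM in WT. RNAi line 12 lay above WT and RNAi line 5 overlapped it, and the log2 difference was 0.12 with a 95% interval of -0.02 to 0.26 (limma adjusted p = 0.133), which became a call without RNAi line 5 replicate 2 (0.17, adjusted p = 0.0481). Whether MKK1 and MKK2 changed to different degrees was not tested. MKK3, which links small MAPKKKs to group C MAPKs, and MKK6, which acts in cytokinesis, had no call in the mean of both lines (-0.12 and 0.07, limma adjusted p = 0.169 and 0.608).

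**Figure D2:**
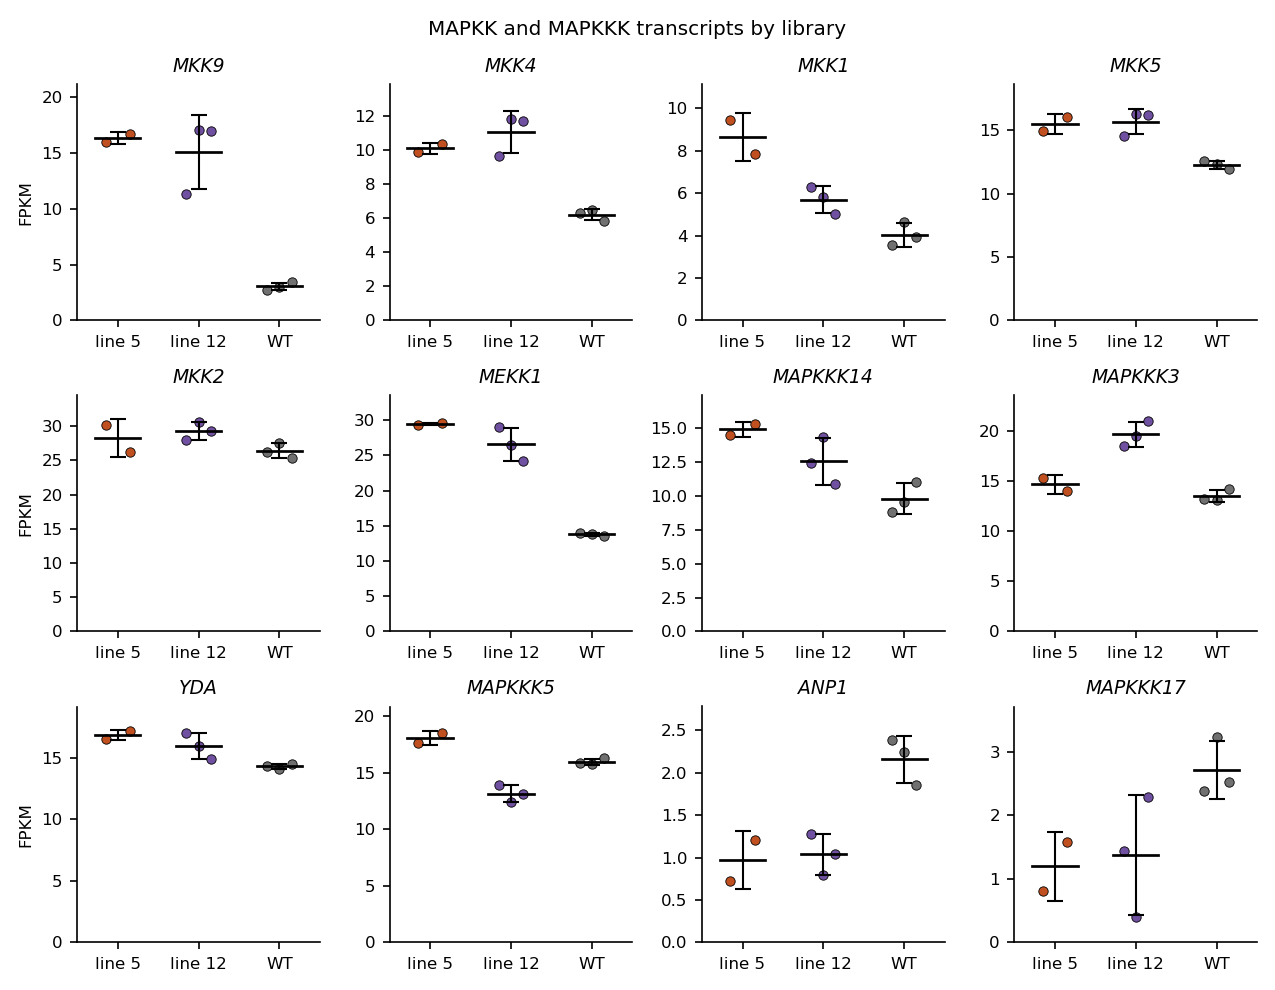
FPKM (y axis, from 0) of 5 MAPKK and 7 MAPKKK genes in each library of RNAi line 5, RNAi line 12 and WT; points are libraries, horizontal bars means and error bars SD (n = 2, 3 and 3). MKK9 and MEKK1 show the widest gaps between RNAi and WT libraries, and ANP1 and MAPKKK17 lie below WT.

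In MAPK group A, MPK3 (AT3G45640, chr3:16756571-16758874, plus strand) had 127 and 122 FPKM in RNAi line 5 and 90.6, 93.8 and 93.8 FPKM in RNAi line 12, against 43.9, 41.6 and 41.6 FPKM in WT. No RNAi library came near the WT range, and MPK3 rose by 1.32 (SE 0.04, limma adjusted p = 9.33e-07), to 2.90 times the WT level of FPKM + 1 in RNAi line 5 and 2.16 times in RNAi line 12. Its partner MPK6 (AT2G43790) had 36.3 and 36.04 FPKM in RNAi line 5 and 37.4, 37.6 and 34.9 FPKM in RNAi line 12, against 34.5, 35.1 and 33.1 FPKM in WT. RNAi line 5 lay just above WT and RNAi line 12 overlapped it, and the 95% interval of its log2 difference was -0.02 to 0.19 (limma adjusted p = 0.136), far short of the change of MPK3. Per length, MPK3 averaged 125 ± 3.32 FPKM and MPK6 36.2 ± 0.187 FPKM in RNAi line 5 (SD, n = 2), whereas in WT they averaged 42.4 ± 1.32 and 34.2 ± 1.03 FPKM (SD, n = 3). MPK10, the last group A gene, reached at most 0.234 FPKM and was not tested.

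Group B holds MPK4 and its relatives. MPK4 (AT4G01370), the end point of the MEKK1 pathway, had 18.2 and 18.8 FPKM in RNAi line 5 and 17.6, 18.5 and 18.3 FPKM in RNAi line 12, against 17.9, 17.3 and 18.5 FPKM in WT. All groups overlapped, and the log2 difference was 0.03 with a 95% interval of -0.08 to 0.14 (limma adjusted p = 0.591). A gene of low level on the other strand (AT4G01380) overlaps MPK4 by 929 bases.

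MPK5 (AT4G11330), a little-studied group B kinase, had 42.7 and 40.5 FPKM in RNAi line 5 and 31.9, 31.6 and 27.3 FPKM in RNAi line 12, against 15.2, 13.9 and 14.2 FPKM in WT. Its RNAi libraries lay far above WT, and it rose by 1.24 (SE 0.06, limma adjusted p = 5.19e-06). By mean FPKM it ranked 3 among the 19 tested MAPKs in RNAi line 5 and 6 in RNAi line 12, against 12 in WT. MPK11 (AT1G01560), the closest relative of MPK4 and activated by bacterial flagellin, had 1.29 and 0.951 FPKM in RNAi line 5 and 1.46, 2.92 and 1.78 FPKM in RNAi line 12, against 0.407, 0.519 and 0.640 FPKM in WT, at 32.4 to 216.5 implied fragments per library. Every RNAi library was above every WT library, and MPK11 rose by 0.73 (SE 0.16, limma adjusted p = 0.00639). It was called in RNAi line 12 (0.98, limma adjusted p = 0.00251) but not in RNAi line 5 (0.48, limma adjusted p = 0.0904). With a pseudocount of 0.1 RNAi line 5 gave a call too (0.97, limma adjusted p = 0.0445). MPK11 passed the filter only through RNAi libraries.

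MPK12 (AT2G46070, listed as ATMPK12), a kinase of guard cells that takes part in stomatal responses to abscisic acid and CO2, went the other way. It had 13.6 and 15.6 FPKM in RNAi line 5 and 13.7, 12.6 and 12.2 FPKM in RNAi line 12, against 24.3, 22.8 and 21.4 FPKM in WT. All RNAi libraries were below all WT libraries, and MPK12 fell by 0.70 (SE 0.07, limma adjusted p = 0.00011). Markers of guard cells and of their precursors were lower in the same libraries. All 3 guard cell markers tested (MYB60, FAMA and SLAC1) were lower in the mean of both lines with all libraries in the fit (log2 differences -0.93, -0.70 and -0.40, limma adjusted p = 0.00062, 0.000261 and 0.012), and they summed to 22.0 to 24.5 FPKM in RNAi line 5 and 19.2 to 22.2 FPKM in RNAi line 12, against 34.9 to 42.3 FPKM in WT. All 4 stomatal lineage markers tested (MUTE, EPF2, EPF1 and BASL) were lower too, with sums of 3.97 to 4.08 FPKM in RNAi line 5 and 4.19 to 5.50 FPKM in RNAi line 12, against 9.003 to 10.8 FPKM in WT. Both marker counts stand beside 28.1% of all genes tested that were lower in the mean of both lines. EPF1 lost its call in limma without WT replicate 1 or 2 or RNAi line 5 replicate 2 (-0.30, -0.28 and -0.24, adjusted p = 0.0696, 0.0794 and 0.0708), and SLAC1 and EPF1 lost theirs without the 3 libraries above 2% ribosomal RNA (-0.44 and -0.21, adjusted p = 0.0605 and 0.185). The part of cell type shares in the fall of MPK12 was not tested. MPK13, expressed near 1 FPKM, had no call in the mean of both lines (-0.16, limma adjusted p = 0.281).

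All 4 MAPKs of group C, the kinases that MKK3 activates, were higher in the mean of both lines, beside 28.1% of all genes tested. In RNAi line 12 alone, 3 of the 4 were called. MPK7 (AT2G18170) had 11.4 and 9.90 FPKM in RNAi line 5 and 14.6, 17.1 and 14.6 FPKM in RNAi line 12, against 5.43, 5.93 and 5.20 FPKM in WT. MPK7 rose by 1.08 (SE 0.08, limma adjusted p = 2.31e-05). MPK14 (AT4G36450) had 1.05 and 1.11 FPKM in RNAi line 5 and 1.67, 1.77 and 1.39 FPKM in RNAi line 12, against 0.443, 0.445 and 0.387 FPKM in WT. MPK14 rose by 0.71 (SE 0.09, limma adjusted p = 0.000391), and it passed the filter only through RNAi libraries. For both genes RNAi line 12 lay above RNAi line 5 and RNAi line 5 above WT, with no overlap. MPK2 (AT1G59580) had 17.2 and 16.9 FPKM in RNAi line 5 and 18.8, 19.98 and 20.6 FPKM in RNAi line 12, against 9.92, 11.7 and 12.6 FPKM in WT. MPK2 rose by 0.65 (SE 0.08, limma adjusted p = 0.000281). MPK1 (AT1G10210) had 6.34 and 5.73 FPKM in RNAi line 5 and 5.03, 4.67 and 5.22 FPKM in RNAi line 12, against 4.65, 4.06 and 4.30 FPKM in WT. MPK1 rose by 0.28 (SE 0.07, limma adjusted p = 0.00978). In RNAi line 12 alone MPK1 had no call (0.16, limma adjusted p = 0.105), but gained one under rescaling without ribosomal RNA and organelle genes (0.22, adjusted p = 0.0376). The MPK1 groups did not overlap either, though the lowest RNAi line 12 library was close to the highest WT library. MPK1 and MPK2 share an exact coding stretch of 56 bases and MPK7 and MPK14 one of 47 bases, so part of the reads of each pair may not have been separable.

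Group D MAPKs, with the aspartate codon, split. MPK17 (AT2G01450), linked to peroxisome proliferation, was the most abundant MAPK in every library and had 128 and 136 FPKM in RNAi line 5 and 111, 101 and 99.6 FPKM in RNAi line 12, against 71.4, 68.3 and 71.8 FPKM in WT. It rose by 0.72 (SE 0.05, limma adjusted p = 2.06e-05), and made up 23.5% and 24.9% of all MAPK FPKM in RNAi line 5 and 20.2% to 21.9% in RNAi line 12, against 16.8% to 17.8% in WT. MPK16 (AT5G19010) had 32.2 and 30.3 FPKM in RNAi line 5 and 36.9, 37.9 and 33.5 FPKM in RNAi line 12, against 23.3, 24.6 and 26.4 FPKM in WT. MPK16 rose by 0.43 (SE 0.06, limma adjusted p = 0.000768). BPM1, a gene of similar level, overlaps MPK16 by 224 bases on the other strand.

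MPK19 (AT3G14720, chr3:4945601-4949042, plus strand) had 8.71 and 8.98 FPKM in RNAi line 5 and 7.33, 6.71 and 7.85 FPKM in RNAi line 12, against 22.9, 21.6 and 17.8 FPKM in WT. The RNAi libraries were all below WT, and its log2 difference of -1.26 (SE 0.09, limma adjusted p = 1.95e-05) was the largest downward among the members tested. Its relative MPK18 (AT1G53510), which works with the phosphatase PHS1 on cortical microtubules, had 15.7 and 18.3 FPKM in RNAi line 5 and 23.8, 20.8 and 23.4 FPKM in RNAi line 12, against 30.5, 29.1 and 30.7 FPKM in WT. MPK18 fell by 0.59 (SE 0.07, limma adjusted p = 0.000228). MPK18 and MPK19 share at most 35 coding bases in a row. MPK20 (AT2G42880) had 27.00 and 27.5 FPKM in RNAi line 5 and 32.05, 29.9 and 31.6 FPKM in RNAi line 12, against 43.2, 43.8 and 42.3 FPKM in WT. MPK20 fell by 0.55 (SE 0.04, limma adjusted p = 3.09e-05). For these 3 genes no RNAi library overlapped WT.

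MPK8 (AT1G18150), a kinase of the wound response, had 19.1 and 19.5 FPKM in RNAi line 5 and 22.7, 23.6 and 23.7 FPKM in RNAi line 12, against 25.5, 25.5 and 22.2 FPKM in WT. MPK8 fell by 0.19 (SE 0.06, limma adjusted p = 0.0235). RNAi line 5 alone lay clear of WT. The MPK8 call was lost in limma without WT replicate 1 (-0.16, adjusted p = 0.0919), WT replicate 2 (-0.16, adjusted p = 0.0926) or RNAi line 5 replicate 1 (-0.18, adjusted p = 0.0637), and without the 3 libraries above 2% ribosomal RNA (-0.22, adjusted p = 0.0955). MPK9 and MPK15 had no call in the mean of both lines (0.13 and -0.11, limma adjusted p = 0.0521 and 0.101). Each became a call when 1 library was left out, MPK9 without RNAi line 5 replicate 2 (0.16, adjusted p = 0.0379) and MPK15 without RNAi line 12 replicate 3 (-0.14, adjusted p = 0.0362). Taken by motif, 7 of the 11 tested MAPKs with glutamate were higher and 1 lower in the mean of both lines (median log2 difference 0.65). Of these 7, MPK11 and MPK14 passed the filter only through RNAi libraries, in which they were high, and they also enter the median. With aspartate, 2 of the 8 were higher and 4 lower (median -0.15). Over all genes tested, 28.1% were higher and 28.1% lower. Whether the kinds of motif differed was not tested.

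**Figure D3:**
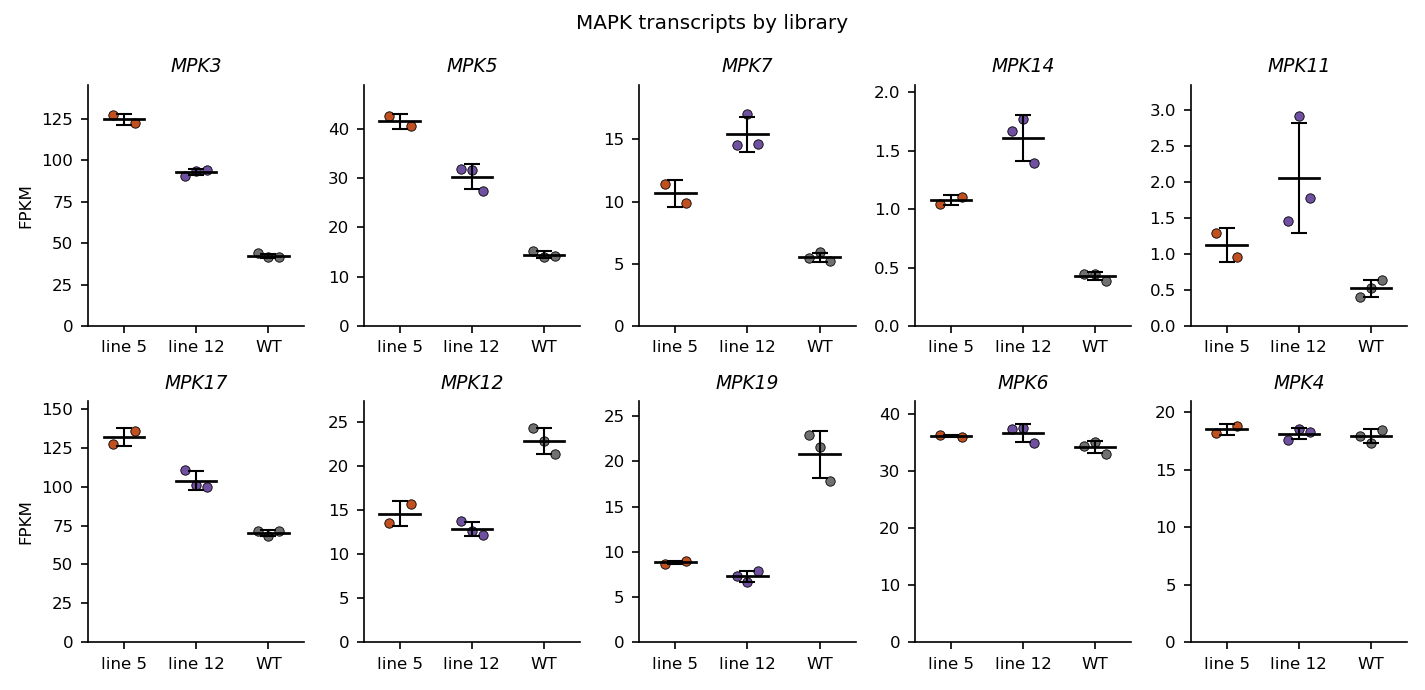
FPKM (y axis, from 0) of 10 MAPK genes in each library of RNAi line 5, RNAi line 12 and WT; points are libraries, horizontal bars means and error bars SD (n = 2, 3 and 3). MPK3, MPK5, MPK7, MPK14, MPK11 and MPK17 lie above WT in all 5 RNAi libraries, MPK12 and MPK19 below, MPK4 overlaps WT in both lines, and MPK6 lies just above WT in RNAi line 5 and overlaps it in RNAi line 12.

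RNAi line 12 and RNAi line 5 differed in 15 members, 9 higher and 6 lower in RNAi line 12, beside 9.07% and 9.93% of all genes tested. On the scale of FPKM + 1 no called difference reached 2-fold, but that scale compresses rare transcripts. With a pseudocount of 0.1 in place of 1, the log2 differences were 2.65 for MAPKKK20, 2.19 for MKK7 and -2.05 for MAPKKK18 (limma adjusted p = 0.0241, 0.00986 and 0.0126). The counts of 9 and 6 rest on few libraries. In limma they were 3 and 3 without RNAi line 5 replicate 1, 1 and 3 without RNAi line 5 replicate 2, 5 and 5 without RNAi line 12 replicate 2, and 3 and 5 without RNAi line 12 replicate 3. Without the 3 libraries above 2% ribosomal RNA limma called 0 and 0, with 3 and 6 at an unadjusted p under 0.05. In each of these settings, calls between the lines over all genes tested became fewer as well. They were 15.1% without RNAi line 12 replicate 2 and 11.9% without RNAi line 12 replicate 3, against 19.0% with all libraries. Wherever a line keeps 1 library, it is assumed to vary like the other groups. Root markers also set the lines apart: the 4 tested summed to 13.9 to 33.6 FPKM in RNAi line 12 and 11.3 to 14.5 FPKM in RNAi line 5, with 25.3 to 36.3 FPKM in WT. Against WT, 1 was higher and 0 lower in RNAi line 12 by limma (0 lower at an unadjusted p under 0.05; median -0.38). In RNAi line 5, 0 were higher and 2 lower (0 higher at an unadjusted p under 0.05; median -1.11). Among all genes tested, 28.3% were higher and 27.7% lower in RNAi line 12, and 22.2% and 22.3% in RNAi line 5. The part of the root markers in the differences between the lines was not tested.

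MAPKKK18 (AT1G05100), an abscisic acid-induced kinase above MKK3, had 0.327, 0.412 and 0.206 FPKM in RNAi line 12 and 1.41 and 1.79 FPKM in RNAi line 5, with 0.866, 0.365 and 0.564 FPKM in WT. The lines did not overlap, and RNAi line 12 was lower (log2 difference -0.98, SE 0.17, limma adjusted p = 0.00704). It was the 1 call of the 15 that kept its side of the threshold under every alternative in which its gene was tested. MAPKKK18 passed the filter only through RNAi line 5, however. It was not tested without either library of that line or without the 3 libraries above 2% ribosomal RNA. Those alternatives, which removed many of the other calls, could therefore not remove this one. MAPKKK20 (AT3G50310), also studied in abscisic acid responses, had 0.809, 1.31 and 1.11 FPKM in RNAi line 12 and 0.0310 and 0.158 FPKM in RNAi line 5, with 0.119, 0.212 and 0.687 FPKM in WT. For MAPKKK20 the log2 difference between the lines was 0.92 (SE 0.20, limma adjusted p = 0.0197). MKK7 (AT1G18350), known from auxin transport and basal resistance, had 0.966, 1.15 and 1.71 FPKM in RNAi line 12 and 0.122 and 0.290 FPKM in RNAi line 5, with 0.819, 0.444 and 0.600 FPKM in WT. For MKK7 the log2 difference between the lines was 0.91 (SE 0.18, limma adjusted p = 0.0121). Both MAPKKK20 and MKK7 passed the filter only through RNAi line 12, the line in which they were high. Neither was tested without replicate 2 or 3 of that line, or without the 3 libraries above 2% ribosomal RNA. WT lay between the lines for MKK7 without overlap, whereas for MAPKKK18 and MAPKKK20 WT overlapped 1 of the lines. MKK7 overlaps AT1G18360, a gene of higher level on the other strand, by 44 bases. MAPKKK18, MAPKKK20 and MKK7 are all near the detection limit: RNAi line 5 replicate 1 implies 2 fragments for MAPKKK20 and 6 for MKK7. Without RNAi line 5 replicate 1 or 2, the limma adjusted p became 0.102 or 0.0818 for MAPKKK20 (differences 0.84 and 1.002) and 0.0735 or 0.0510 for MKK7 (0.81 and 1.01).

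MAPKKK10 had 11.1, 14.00 and 15.01 FPKM in RNAi line 12 and 8.03 and 9.01 FPKM in RNAi line 5, with 9.68, 9.003 and 8.88 FPKM in WT. RNAi line 12 was the high group by 0.58 over RNAi line 5 (SE 0.12, limma adjusted p = 0.0153), and the call was lost without RNAi line 5 replicate 1 (0.51, adjusted p = 0.0905) or 2 (0.66, adjusted p = 0.0565). In the mean of both lines against WT, MAPKKK10 had no call (0.19, limma adjusted p = 0.127), but gave one without RNAi line 12 replicate 1 (0.25, adjusted p = 0.0156).

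MPK7 was higher in RNAi line 12 than in RNAi line 5 by 0.49 (SE 0.10, limma adjusted p = 0.0131, and 0.40 with adjusted p = 0.103 without RNAi line 5 replicate 2). Several members that were higher than WT in the mean of both lines were lower in RNAi line 12 than in RNAi line 5. MPK3 was lower there than in RNAi line 5 (log2 difference -0.42, SE 0.05, limma adjusted p = 0.00194, and -0.48 with adjusted p = 0.0753 without the 3 libraries above 2% ribosomal RNA). MPK5 was lower (log2 difference -0.45, SE 0.08, limma adjusted p = 0.00877, and -0.41 with adjusted p = 0.0571 without RNAi line 5 replicate 1). MPK17 was lower (log2 difference -0.34, SE 0.06, limma adjusted p = 0.0104, and -0.30 with adjusted p = 0.0847 without RNAi line 5 replicate 2). MKK1 was lower (log2 difference -0.53, SE 0.13, limma adjusted p = 0.029). The MKK1 difference lost its call without RNAi line 5 replicate 1 (-0.40, adjusted p = 0.159) or 2 (-0.65, adjusted p = 0.0615), or without RNAi line 12 replicate 2 (-0.54, adjusted p = 0.0558) or 3 (-0.45, adjusted p = 0.0785) in limma. MAPKKK5 was lower in RNAi line 12 (log2 difference -0.43, SE 0.07, limma adjusted p = 0.00452), a call that no single left-out library removed but that was lost without the 3 libraries above 2% ribosomal RNA (-0.32, adjusted p = 0.179).

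**Figure D4:**
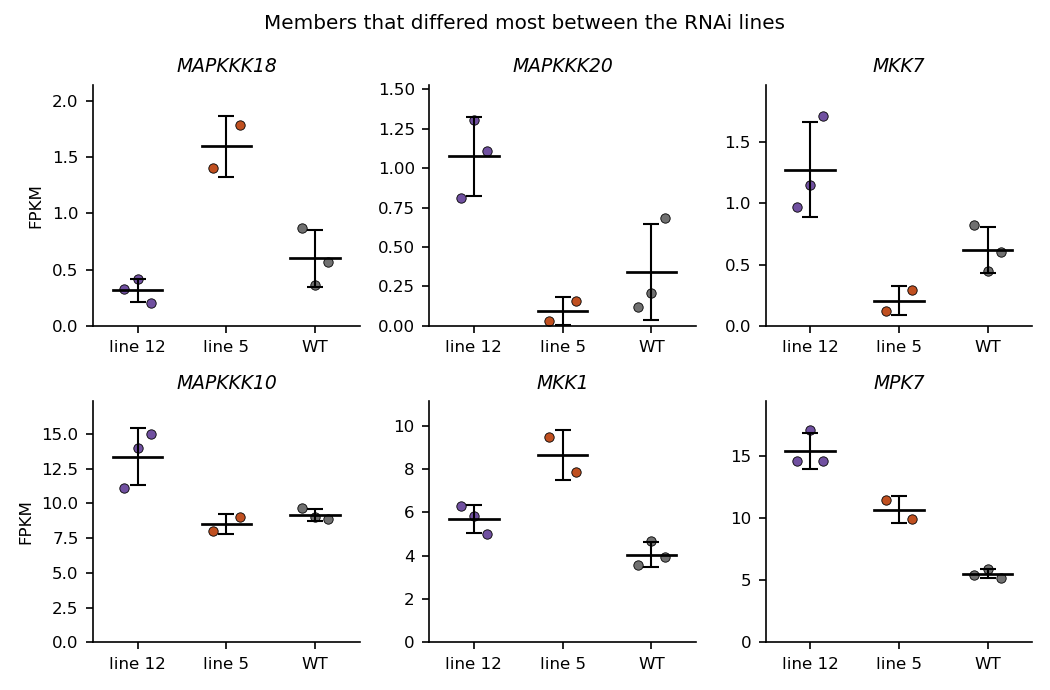
FPKM (y axis, from 0) of the 6 members with the largest called differences between the lines, in each library of RNAi line 12, RNAi line 5 and WT; points are libraries, horizontal bars means and error bars SD (n = 3, 2 and 3). MAPKKK18 and MKK1 are lower in RNAi line 12 than in RNAi line 5, and MAPKKK20, MKK7, MAPKKK10 and MPK7 are higher.

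Read along the known relays, which were grouped after the values were seen, all 3 tiers held members that rose. The counts below stand beside 28.1% higher and 28.1% lower among all genes tested and say nothing particular to a relay. In the relay of MAPKKK3, MAPKKK5 and YDA through MKK4 and MKK5 to MPK3 and MPK6, 5 of 7 members were higher and 0 lower in the mean of both lines (0 lower also at an unadjusted p under 0.05 in limma). MKK9, another activator of MPK3 and MPK6 that was higher, is not counted there. In the relay of MEKK1 through MKK1 and MKK2 to MPK4, 2 of 4 were higher and 0 lower. In the relay of MAPKKK17 and MAPKKK18 through MKK3 to the group C MAPKs, 4 of 7 were higher, all of them MAPKs, and 1 was lower. This grouping leaves out MAPKKK14, which also acts above MKK3 and was higher. It includes MPK14, which passed the filter only through RNAi libraries. In the ANP relay through MKK6 to MPK4, 0 of 5 were higher and 1 was lower by limma, with 0 higher and 2 lower at an unadjusted p under 0.05.

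Genes around the cascades were described from 4 lists, chosen with earlier results of these data known: phosphatases that switch MAPKs off, MAPK substrates, receptors and scaffolds above the cascades, and early defence output. Their counts also stand beside 28.1% higher and 28.1% lower among all genes tested. The phosphatases AP2C2, AP2C3 and AP2C4 were on the list too but were left out, as their symbols were not matched. Of the 7 phosphatases tested, 4 were higher and 0 lower in the mean of both lines (limma, and 0 lower at an unadjusted p under 0.05; median 0.29), so that 57.1% were called, beside 56.1% of all genes tested. AP2C1, a phosphatase of the PP2C type that acts on MPK3, MPK4 and MPK6, had 54.2 and 48.5 FPKM in RNAi line 5 and 25.4, 22.6 and 24.9 FPKM in RNAi line 12, against 4.43, 5.17 and 5.62 FPKM in WT. It rose by 2.59 (SE 0.08, limma adjusted p = 9.33e-07), more than any member of the cascades, and RNAi line 12 lay between RNAi line 5 and WT. MKP2 and DSPTP1, dual-specificity phosphatases, rose by 0.22 and 0.35 (SE 0.07 and 0.07, limma adjusted p = 0.0321 and 0.00472). The MKP2 call was lost in limma without WT replicate 1 or 2 (0.17 and 0.21, adjusted p = 0.120 and 0.0957), RNAi line 5 replicate 1 (0.20, adjusted p = 0.0916), RNAi line 12 replicate 1 or 3 (0.20 and 0.21, adjusted p = 0.0570 and 0.0600), or the 3 libraries above 2% ribosomal RNA (0.28, adjusted p = 0.0522). MKP1, a dual-specificity phosphatase of MPK3 and MPK6, rose by 0.46 (SE 0.05, limma adjusted p = 0.000105), with 27.9 and 25.7 FPKM in RNAi line 5 and 27.6, 28.2 and 27.4 FPKM in RNAi line 12, against 19.1, 19.8 and 19.6 FPKM in WT.

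Of the 20 substrates, 13 were higher and 1 lower (median 0.63, beside -0.01 over all genes tested). WRKY33, a transcription factor of camalexin synthesis that MPK3 and MPK6 phosphorylate, had 180.0 and 158 FPKM in RNAi line 5 and 100.5, 105 and 108 FPKM in RNAi line 12, against 11.4, 13.1 and 12.8 FPKM in WT. Its log2 difference was 3.32 (SE 0.07, limma adjusted p = 2.89e-07), with no RNAi library near WT. The zinc finger repressor ZAT10, a substrate of MPK3 and MPK6, had 98.6 and 82.2 FPKM in RNAi line 5 and 46.2, 60.2 and 41.4 FPKM in RNAi line 12, against 2.26, 3.21 and 5.79 FPKM in WT. ZAT10 rose by 3.89 (SE 0.23, limma adjusted p = 9.4e-06). ERF6 and ERF104, ethylene response factors, rose by 3.32 and 2.48 (SE 0.11 and 0.20, limma adjusted p = 9.33e-07 and 3.37e-05). SPCH, the factor that starts the stomatal lineage and is a substrate of MPK3 and MPK6, was the only substrate called lower and is named for that, at 1.12 and 1.36 FPKM in RNAi line 5 and 1.74, 1.60 and 1.64 FPKM in RNAi line 12, against 3.29, 3.67 and 3.66 FPKM in WT (-0.90, SE 0.08, limma adjusted p = 5.38e-05). The stomatal lineage markers given beside MPK12 were lower in the same libraries, and their part in this result was not tested.

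Of the 22 genes upstream of the cascades, 11 were higher and 9 lower, beside 28.1% and 28.1% of all genes tested, and the median was 0.04. Among the higher ones were parts of the machinery that senses microbes. BIK1 and PCRK1, cytoplasmic kinases below pattern receptors, rose by 1.67 and 1.66 (SE 0.11 and 0.08, limma adjusted p = 1.21e-05 and 3.07e-06). FLS2, the flagellin receptor, had 6.17 and 3.79 FPKM in RNAi line 5 and 13.9, 12.2 and 3.01 FPKM in RNAi line 12, against 1.95, 1.76 and 1.96 FPKM in WT. FLS2 rose by 1.35 (SE 0.41, limma adjusted p = 0.0241) with a wide spread within RNAi line 12. The FLS2 call was lost in limma without any 1 of the WT libraries (1.37, 1.32 and 1.37, adjusted p = 0.0633, 0.0704 and 0.0605) and without RNAi line 5 replicate 1 (1.20, adjusted p = 0.0744). TMM, the receptor-like partner of the ERECTA family in stomatal patterning, had 6.70 and 7.64 FPKM in RNAi line 5 and 6.43, 6.69 and 6.94 FPKM in RNAi line 12, against 15.8, 15.2 and 16.4 FPKM in WT. TMM fell by 1.09 (SE 0.06, limma adjusted p = 6.55e-06). The stomatal lineage markers were lower in the same libraries, and their part was not tested. ERECTA itself, ERL1 and ERL2 were lower too (-0.30, -0.32 and -0.89, limma adjusted p = 0.00443, 0.0132 and 8.03e-05), but ERL1 not without WT replicate 1 (-0.28, adjusted p = 0.0576), and neither ERECTA nor ERL1 without the 3 libraries above 2% ribosomal RNA (-0.26 and -0.37, adjusted p = 0.0564 and 0.0592). The ERECTA family and the RACK1 genes were named after their values were seen. RACK1A, RACK1B and RACK1C, scaffold proteins that also sit on the ribosome, were also lower (-0.64, -0.41 and -0.62, limma adjusted p = 2.56e-05, 0.00604 and 0.00107).

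Of the 10 early defence genes, 7 were higher and 0 lower (limma, and 0 lower at an unadjusted p under 0.05; median 1.68). CYP81F2, an enzyme of indole glucosinolate synthesis, had 75.1 and 47.1 FPKM in RNAi line 5 and 22.7, 45.9 and 21.7 FPKM in RNAi line 12, against 1.56, 1.45 and 1.19 FPKM in WT. CYP81F2 rose by 4.14 (SE 0.26, limma adjusted p = 1.15e-05). The transcription factors WRKY40, WRKY22 and MYB51 rose by 3.62, 3.34 and 2.69 (SE 0.12, 0.10 and 0.10, limma adjusted p = 1.12e-06, 8.03e-07 and 1.56e-06). FRK1, the flagellin-induced kinase gene often read as a MAPK output, had no call (0.81, SE 0.35, limma adjusted p = 0.0796), nor had NHL10 (0.22, limma adjusted p = 0.339) or the camalexin enzyme PAD3 (-0.68, limma adjusted p = 0.147). Each passed the threshold when 1 library was left out: FRK1 without RNAi line 12 replicate 1 (0.99, adjusted p = 0.0244), NHL10 without WT replicate 2 (0.46, adjusted p = 0.0263) and PAD3 without WT replicate 1 (-1.06, adjusted p = 0.0343). These 3 genes were singled out after their values were seen.

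**Figure D5:**
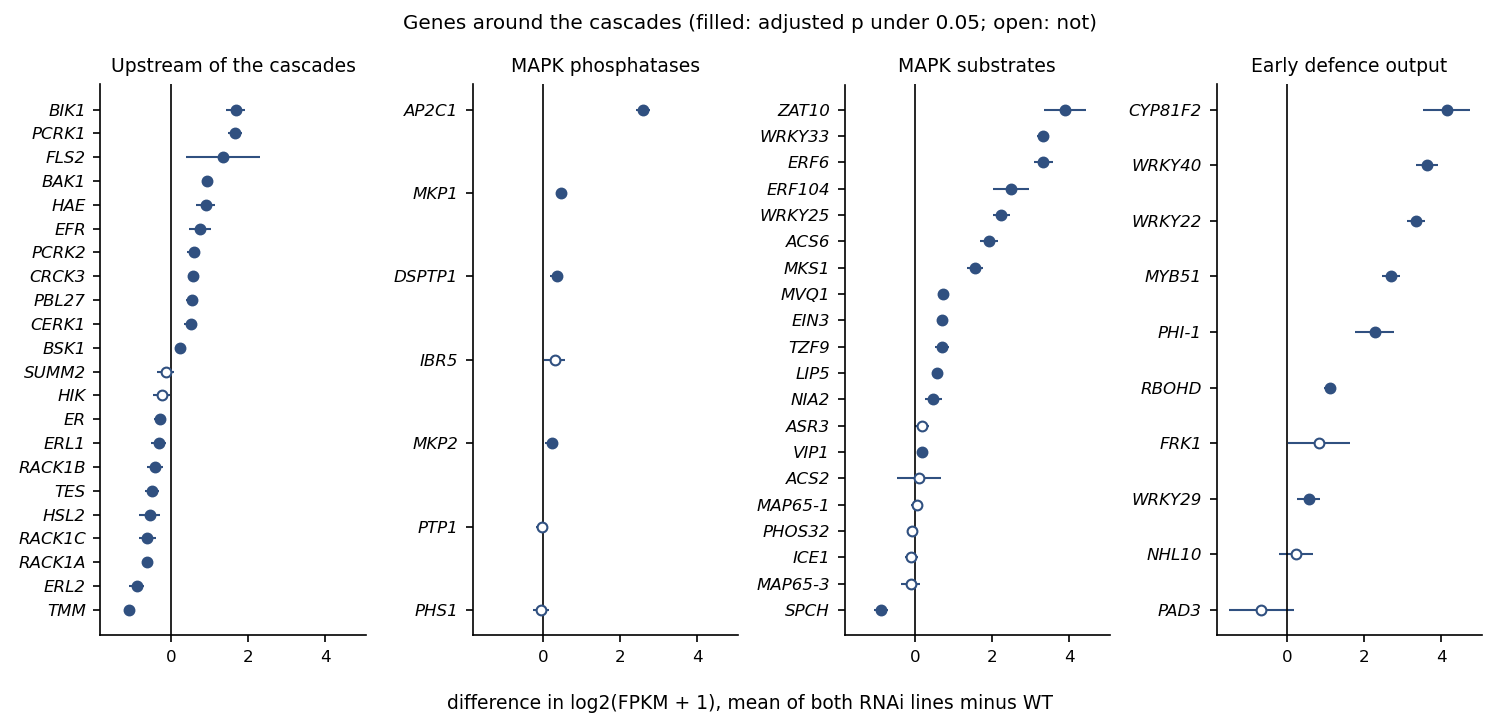
Difference in log2(FPKM + 1) between the mean of both RNAi lines and WT (x axis) for 59 genes of 4 lists around the cascades; lines are 95% confidence intervals from limma, and filled points have an adjusted p under 0.05. AP2C1, ZAT10, WRKY33 and CYP81F2 lie far to the right of 0 (2.59, 3.89, 3.32 and 4.14) and SPCH and TMM to the left (-0.90 and -1.09).

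The 23 members that were not tested are MPK10, AT4G01595, MKK8, MKK10, 18 MAPKKK genes and the binding-protein match. Listed at 0 in every library were 11 of them: MKK8, AT2G05060, AT2G18530, AT2G40560, AT2G41910, AT2G41930, AT2G42550, AT3G45790, AT4G04632, AT5G12090 and AT5G27790. The highest value in any library was 1.18 FPKM for MAPKKK15, 0.860 FPKM for AT2G43930, 0.806 FPKM for MAPKKK21 and 0.513 FPKM for MAPKKK16. It was 0.329 FPKM for AT4G01595, 0.256 FPKM for the binding-protein match AT3G09080 and at most 0.0857 FPKM for MKK10, AT2G34290, AT2G41920, AT3G46140 and AT3G46160. Matches to MAPKKK17 were the most frequent among them, and 2 of the MAPKKK matches and the binding-protein match are to proteins of other species. MAPKKK13 and MAPKKK19 passed the filter without a call in the mean of both lines (0.15 and 0.27, limma adjusted p = 0.513 and 0.184), and MAPKKK19 gave a call without RNAi line 5 replicate 1 (0.41, adjusted p = 0.0445). AT4G32250, whose match is a human MAPKKK, was the 1 gene without a symbol that passed the filter, and it had no call in the mean of both lines (-0.07, limma adjusted p = 0.718), but was lower without the 3 libraries above 2% ribosomal RNA (-0.28, adjusted p = 0.0425).

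The 300 bases before the gene start were searched on both strands for 4 motifs in the 43 tested members, beside the 18606 tested protein-coding genes. The core of the W-box, TTGAC (reverse complement GTCAA), to which WRKY factors bind, was in 6 of the 17 members that were higher (35.3%), 4 of the 7 that were lower (57.1%) and 50.4% of all promoters of that length. The stress element CGCGTT (reverse complement AACGCG) was in 2 of the 17 higher members (11.8%), MKK4 and MEKK1, 1 of the 7 lower members (14.3%), MPK20, 1 of the 19 without a call (5.26%), MPK4, and 3.30% of all. The G-box CACGTG, its own reverse complement, was in 11 of the 43 tested members (25.6%), 3 of them higher and 2 lower, and in 8.08% of all. The evening element AAATATCT (reverse complement AGATATTT), a site of morning clock factors, was in 3 of the 43 tested members (6.98%). That was near its share of 5.89% in all promoters. The 3 were the group C genes MPK2, MPK7 and MPK14, among the 17 higher members (17.6%), and the other 26 tested members had 0. Of the 3, MPK14 passed the filter only through RNAi libraries. None of the 4 motifs contains another, though the end of CGCGTT can form the start of TTGAC, and a match describes letters only.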

How the data were processed

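RNA from whole seedlings of RNAi line 5, RNAi line 12 and WT was sequenced from TruSeq libraries made with 1.5 µg of total RNA, per the labels' protocols. The authors deposited 1 table of normalised values per gene. The submitters' processing notes name HISAT2, StringTie and the TAIR10 genome, but the counting step, annotation release and strand setting were not stated in any source used here. The deposited values were read as FPKM from the low non-zero values of each library. Per library, 85.79% to 87.23% of these low values equalled a whole number of fragments divided by gene length and depth. This is also how the implied fragments were derived.

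As the values are FPKM and not counts, limma 3.58.1 (R 4.3.3) was fitted to log2(FPKM + 1) over all 8 libraries, with moderated variances and a mean-variance trend (2.71 prior degrees of freedom). The filter kept the 19395 of 32833 genes that had 1 FPKM or more in 2 or more libraries, and p-values were adjusted by Benjamini-Hochberg over these genes with a threshold of 0.05. The fit was tested on simulated data. Python 3.11.15, numpy 2.4.6, pandas 2.3.3 and matplotlib 3.10.9 were used for the rest. Every member could be named, and of each list up to 4 called genes by size of change averaged over the lines, unless stated otherwise. The members and gene lists were chosen with earlier results of these data known. Gene sequences came from RefSeq TAIR10.1. The alternatives were median centring, rescaling without ribosomal RNA and organelle genes, other filters, a pseudocount of 0.1, a replicate block, a 2-fold minimum and each library left out, with the 3 libraries above 2% ribosomal RNA left out together as an alternative chosen after seeing the data.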

Additional observations from a re-analysis of the deposited data

Results flagged for a closer look

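The 2 RNAi lines, set against the same 3 WT libraries, differed by the limma test of RNAi line 12 against RNAi line 5 in 15 members. Higher in RNAi line 12 were MAPKKK20 (log2 difference 0.92), MKK7 (0.91), MAPKKK10 (0.58), MPK7 (0.49), MAPKKK3 (0.40), MPK18 (0.40), MPK8 (0.26), MPK9 (0.26) and MPK20 (0.19). Of these, MAPKKK20 and MKK7 passed the filter only through RNAi line 12. Lower in RNAi line 12 were MAPKKK18 (-0.98), MKK1 (-0.53), MPK5 (-0.45), MAPKKK5 (-0.43), MPK3 (-0.42) and MPK17 (-0.34). MPK18, MPK8 and MPK20 were thus nearer to WT in RNAi line 12 than in RNAi line 5, as were MPK3, MPK5, MPK17 and MKK1. The MPK20 call between the lines was lost in limma without WT replicate 1, 2 or 3 (0.19 each, adjusted p = 0.0748, 0.0715 and 0.0588). The MPK8 call was lost without WT replicate 1 or 2 (0.26 each, limma adjusted p = 0.0566 and 0.0565), and without any 1 library of either line. ABCE2 itself differed little between the lines (-0.01, limma adjusted p = 0.919).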

How the results depend on the processing

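Over 172 pairs of a tested member and a comparison, 0 called values changed sign among 2492 alternative values, whereas 52 values without a call, in 25 of the pairs, did. The call was lost in 117 of these values and gained in 29. Of the calls, 21 of 24 in the mean of both lines, 14 of 22 in RNAi line 5, 16 of 25 in RNAi line 12 and 1 of 15 between the lines held under each alternative in which the gene was tested. The call that held between the lines, MAPKKK18, was not tested without either RNAi line 5 library. Requiring a 2-fold change of FPKM + 1, which compresses changes of rare transcripts, left 4 higher and 1 lower in RNAi line 5, in RNAi line 12 and in their mean, and 0 and 0 between RNAi line 12 and RNAi line 5. With the replicate block the counts were 13 and 6 in RNAi line 5, 17 and 6 in RNAi line 12, 16 and 6 in the mean, and 1 and 4 between the lines. Calls between the lines over all genes were also fewer with that block, at 7.94% against 19.0% in the values reported. Libraries with the same number in different groups had correlated deviations of r from -0.298 to 0.163 over 7 pairs. Within groups of 2 or 3 libraries such deviations depend on each other, so they cannot decide whether the numbers pair the samples. Between the lines, the counts were 0 and 0 by limma without the 3 libraries above 2% ribosomal RNA (3 and 6 at an unadjusted p under 0.05). Leaving out each library in turn gave 1 to 8 higher and 3 to 6 lower between the lines, 12 to 17 and 4 to 7 in RNAi line 5, 16 to 18 and 6 to 7 in RNAi line 12, and 16 to 18 and 5 to 8 in the mean, and ABCE2 ranged from -1.17 to -1.12. Rescaling without ribosomal RNA and organelle genes moved the share of higher calls between the lines, over all genes, to 64.3%, against 47.8% in the values reported, with 10 higher and 6 lower members. In the mean of both lines the lost calls were MPK8, YDA and MAPKKK17. MPK8 was also lost under rescaling (-0.16, adjusted p = 0.0634). YDA was also lost under centring (0.14, adjusted p = 0.0592) and the replicate block (0.18, adjusted p = 0.0671). MAPKKK17 was also lost under rescaling (-0.72, adjusted p = 0.0549), no filter (-0.75, adjusted p = 0.0627), the pseudocount of 0.1 (-1.18, adjusted p = 0.0720) and the replicate block (-0.69, adjusted p = 0.104). All adjusted p-values are from limma, and the cause was not tested. Depth limits the rarest members: MAPKKK20 rests on 2 to 82 implied fragments per library, MKK7 on 6 to 82 and MAPKKK18 on 12 to 105.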
